A study of Mus musculus with 4 samples.

Results

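The mitochondrial ribosomal proteins are the protein components of the ribosome that works inside mitochondria. They were taken here as all protein-coding genes whose symbol has the form Mrpl or Mrps followed by a number and at most 1 letter. The rule found 77 genes among the 22078 genes with at least 1 count, of which 14179 were protein-coding, 48 named for the large subunit (Mrpl) and 29 for the small subunit (Mrps). The GENCODE annotation holds 78 such genes, of which 1 was absent from the count files and so was not analysed. Beyond presence in those files, the rule used no measured value.

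Renal cortex from 1 kidney per mouse was dissociated and its cells were read by Drop-seq. In this assay each captured mRNA gets a barcode for its droplet and a unique molecular identifier (UMI), and UMIs are counted in place of reads. The Akita group was 2 mice of the line C57BL/6-Ins2Akita/J, which carries a mutated Ins2 (insulin) allele that makes mice diabetic, aged 116 and 119 days. The wild-type group was 2 mice described as its wild-type counterparts, aged 45 and 51 days. Age therefore ran with genotype, and the effects of age and genotype cannot be told apart. No further treatment is given in the labels.

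Mitochondria keep a small genome of their own, whose mRNAs specify core subunits of the respiratory chain and of ATP synthase. Only the mitochondrial ribosome translates these mRNAs. Its ribosomal RNAs come from the mitochondrial genome, while its proteins are encoded in the nucleus, made in the cytosol and imported. The members were chosen by symbol, which does not show that each product is part of the ribosome. Tubule cells of the renal cortex reabsorb salt and solutes against gradients, and the proximal tubule, the thick ascending limb of the loop of Henle and the distal convoluted tubule are known for their dense mitochondria.

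Barcodes with at least 200 genes and at most 50% of UMIs from mitochondrially encoded genes were retained as cells. Akita replicates 1 and 2 gave 311 and 600 cells, Wild-type replicates 1 and 2 gave 564 and 441, and the total was 1916. The retained cells carried between 557780 and 812747 UMIs per library. Akita replicate 2 and Wild-type replicate 1 stood apart in having 884 barcodes in common, where every other pair of libraries had 3 or 4 strings in common. Of the cells retained, 73.0% in the former and 80.5% in the latter had such a barcode, and the 424 retained in both files had the same cell class each time. Results across genotypes are therefore also given without them, and comparisons between cell classes pool this pair into 1 source, leaving 3 sources.

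Cells were clustered without the 77 genes and named by marker genes. They fell into 1446 proximal tubule-like, 174 loop of Henle-like, 107 distal convoluted tubule-like, 111 intercalated-like, 62 connecting tubule-like and 16 macrophage or dendritic-like cells. The classes were not cleanly separated. Umod, a marker of the loop of Henle, was at 3882 CPM (UMIs of a gene scaled to a total of 1e6) in the loop of Henle-like class and 2338 CPM in the distal convoluted tubule-like class, and Slc12a3, a marker of the distal convoluted tubule, was at 3904 and 8937 CPM in the same order. Kap, an abundant proximal tubule mRNA, was at 41414 CPM in proximal tubule-like cells and between 5781 and 6688 CPM in the other tubule classes of retained cells. Its part in the comparisons of classes below was not tested.

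The stretches of genome upstream of 4 members are shown. The results turn on Mrps6 and Mrpl42, while Mrpl34 and Mrpl52 hold an ETS-type motif within such a stretch. Members at higher levels than Mrpl34, namely Mrps21, Mrpl18, Mrpl51 and Mrpl57, hold these letters in their longer window but not in a full stretch of this kind. Mrpl33, Mrpl17 and Mrps33, which lie above Mrpl52 in level, also hold them in their longer window. Each line gives 150 bases, 5′ to 3′ on the gene's strand, from RefSeq promoter windows on GRCm38.p6. They end just before the RefSeq or the GENCODE start, whichever lies further upstream. For Mrps6 that is the GENCODE start, and for the other 3 it is the RefSeq start. Capitals mark matches to the motifs searched.
Mrps6, chr16:92058120-92058269, plus strand: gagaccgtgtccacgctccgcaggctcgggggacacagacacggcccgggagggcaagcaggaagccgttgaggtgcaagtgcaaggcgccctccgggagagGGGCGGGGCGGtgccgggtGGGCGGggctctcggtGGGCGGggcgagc
Mrpl42, chr10:95501950-95502099, minus strand: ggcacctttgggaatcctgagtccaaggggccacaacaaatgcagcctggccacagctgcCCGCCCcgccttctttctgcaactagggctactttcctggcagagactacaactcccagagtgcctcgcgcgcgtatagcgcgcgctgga
Mrpl34, chr8:71464776-71464925, plus strand: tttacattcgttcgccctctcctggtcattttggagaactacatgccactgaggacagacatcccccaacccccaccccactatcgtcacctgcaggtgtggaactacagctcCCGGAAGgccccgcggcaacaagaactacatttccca
Mrpl52, chr14:54426759-54426908, plus strand: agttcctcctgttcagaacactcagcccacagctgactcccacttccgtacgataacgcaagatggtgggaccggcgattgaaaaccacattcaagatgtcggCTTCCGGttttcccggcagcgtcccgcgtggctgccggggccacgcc

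Motifs of 4 kinds were searched on both strands in the RefSeq windows, which run from 250 bases before to 50 bases after each start, for 68 members (74 windows) and for 21262 windows of protein-coding genes. The ETS-type letters CCGGAAG were in 33.8% of member windows and 11.6% of all windows. The YY1-type letters AAGATGGC were in 16.2% and 3.05%, and the NRF1-type palindrome in 4.05% and 1.33%. The SP1-type letters GGGCGG were in 52.7% of member windows and 46.2% of all windows. Upstream of Mrps6, capitals mark 4 matches to GGGCGG, of which the first pair shares bases, and upstream of Mrpl42 they mark 1 match on the opposite strand. Members also often lay head to head with another protein-coding gene: 19 of 77 (24.7%) had such a partner starting within 1000 bases on the other strand, compared with 7.21% of 22028 annotated coding genes. Pairs with overlapping 5′ ends were not all counted. Mrpl46 and Mrps11, which start on opposite strands at 78783531 and 78783119 of chromosome 7, were left out. A match to these letters is a description of the sequence and not a measured binding site.

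The 77 members were all detected in all 4 libraries, at low single-gene levels. Together they made up 0.644% of the UMIs of retained cells. The summed level was 6176 and 6584 CPM in the Akita libraries and 6282 and 6729 CPM in the wild-type libraries, so that the genotypes interleaved. This rested on 3445, 4975, 5106 and 4737 UMIs, or between 44.7 and 66.3 UMIs per member and library. Small subunit genes gave 0.506 to 0.569 UMIs for each UMI of large subunit genes across the libraries.

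The level of a member ranged from 7.85 to 309 CPM with a median of 74.0 CPM. Of the 77 members, 21 were above 100 CPM, 36 lay between 50 and 100 CPM and 20 were lower. The 10 highest held 28.6% of the summed level. Mrps21, a bacterial-type small subunit protein, was highest at 258, 331, 306 and 339 CPM in Akita replicates 1 and 2 and Wild-type replicates 1 and 2. Mrpl42, a large subunit protein with no bacterial counterpart, followed at 244, 315, 292 and 331 CPM. Both genes were lowest in Akita replicate 1 and highest in Wild-type replicate 2, and the libraries of the 2 genotypes overlapped.

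The next 8 members by level had mean values close to each other, from 172 to 147 CPM. Mrps14 was at 129, 188, 167 and 151 CPM. The others were Mrpl18 (172 ± 17.4 CPM, SD, n = 4 libraries), Mrpl51 (168 ± 11.6), Mrpl57 (151 ± 13.6), Mrps24 (148 ± 18.7), Mrpl34 (148 ± 13.6), Mrpl20 (148 ± 24.7) and Mrpl12 (147 ± 18.6). Neighbours in this order differed by less than their spread over libraries. The step from Mrpl42 (295 ± 38.0 CPM) to Mrpl18 was larger than the spread of either. These levels were not divided by length. On a per-length scale (CPM per kilobase of transcript) Mrps21 and Mrpl42 were still ranked 1 and 2, and 6 of the 10 highest members were shared between both orders.

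The 3 paralogs of one bacterial protein, Mrps18a, Mrps18b and Mrps18c, differed in level. Mrps18a, whose product sits in the large subunit in spite of its name, was at 66.3, 56.9, 62.8 and 72.4 CPM in Akita replicates 1 and 2 and Wild-type replicates 1 and 2. Mrps18c was at 66.3, 62.2, 56.6 and 73.9 CPM in the same libraries. Mrps18b was at 10.8, 1.32, 3.69 and 15.6 CPM, from 6, 1, 3 and 11 UMIs, and was the lowest of all members. Its values lay far below both paralogs in every library. Reads in stretches shared by paralogs can be counted for the wrong copy, and how the counting treated them is not given in the sources used here.

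**Figure D1:**
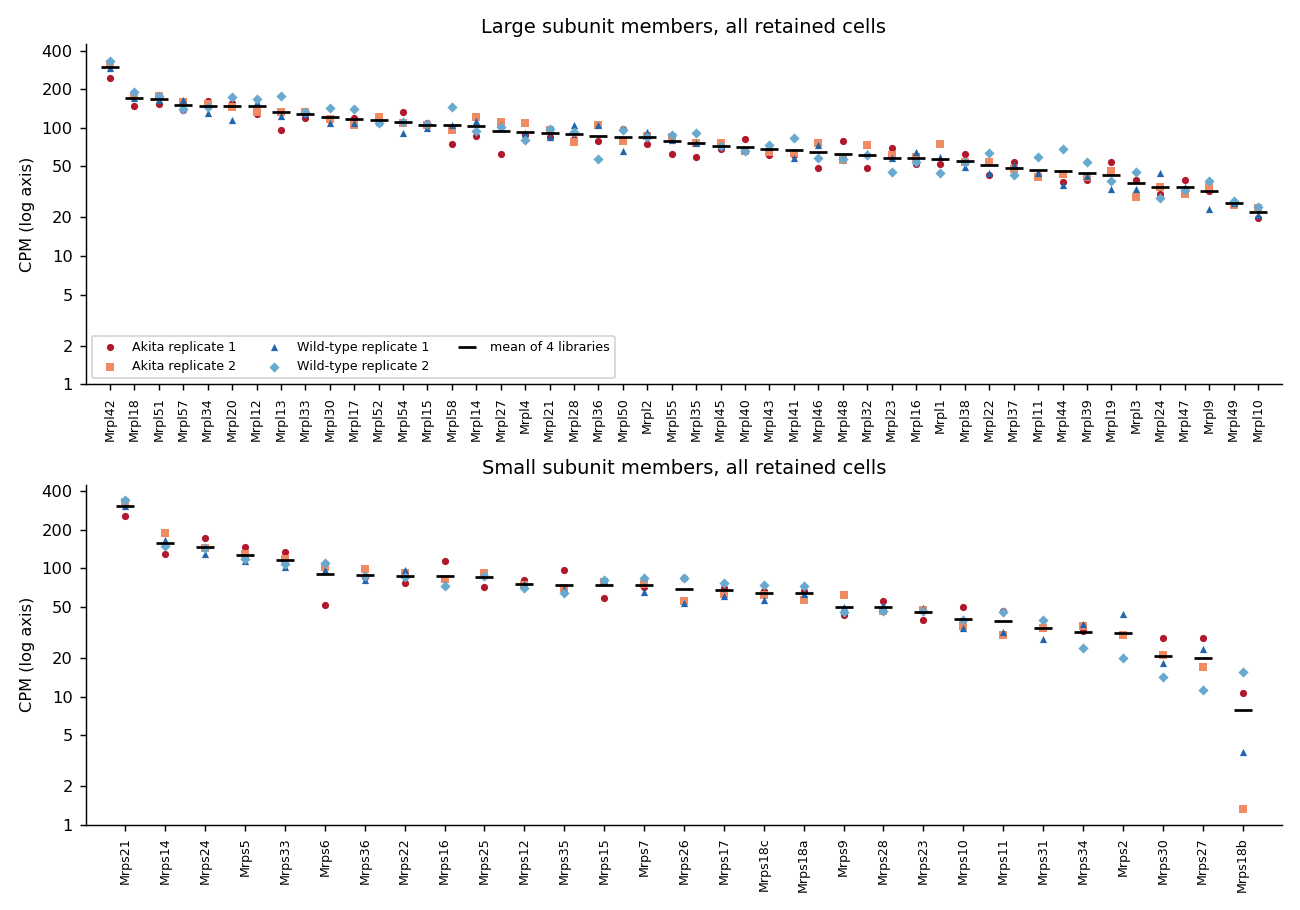
Level of each of the 77 members in CPM on a log axis, in all retained cells, for the large subunit (top) and the small subunit (bottom), ordered by the mean of 4 libraries (black dash). Coloured points are the libraries. Mrps21 and Mrpl42 stand above the rest at means of 309 and 295 CPM, and Mrps18b is lowest at 7.85 CPM.

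Spread between libraries was moderate. The median coefficient of variation over the 4 libraries was 13.8%, from 3.42% for Mrpl49 to 83.5% for Mrps18b. Mrps6 was at 52.0 CPM in Akita replicate 1 and at 102, 97.2 and 111 CPM in Akita replicate 2 and Wild-type replicates 1 and 2. Akita replicate 1 was the low library for this gene.

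No member passed the test between Akita and wild-type kidneys. Barcodes in both files of the pair held 88.4% of the retained UMIs of Akita replicate 2 and 91.5% of those of Wild-type replicate 1. These libraries lie on opposite sides of the comparison, so a lack of calls does not show that levels were equal. Of the 77 members, 76 passed the filter on low counts, and 0 of 76 had an adjusted p under 0.05 by edgeR's quasi-likelihood test, where percent called over all 7169 genes tested was 0%. At an unadjusted p under 0.05 there were also 0 members, beside 0.949% of all genes. DESeq2 and limma-voom called 0 members too. The median log2 fold change of the members (Akita over wild type) was −0.02, and that of all genes tested was 0.00. Of the members 44.7% had a value above 0, beside 50.2% of all genes.

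Both Akita libraries lay above both wild-type libraries for 11 of 76 members and below them for 8, which is 14.5% and 10.5%, and the same held for 12.6% and 11% of all genes tested. Together that was 25% of members and 23.6% of all genes. Mrpl58, a peptidyl-tRNA hydrolase that is also built into the large subunit, had the smallest p of all members. It was at 75.3 and 96.6 CPM in Akita replicates 1 and 2 and at 105 and 145 CPM in the wild-type libraries. Its log2 fold change was −0.52 ± 0.26 (SE; unadjusted p 0.0676, edgeR adjusted p 1.00). The groups did not overlap, and the difference did not pass the test.

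Mrpl13 was at 96.8 and 132 CPM in Akita and 124 and 178 CPM in wild type, and Mrpl12, which is known to bind the mitochondrial RNA polymerase as well as the ribosome, was at 129 and 134 CPM in Akita and 157 and 168 CPM in wild type. Their log2 fold changes were −0.37 ± 0.26 and −0.31 ± 0.22, and neither passed. In the other direction, Mrpl19 was at 53.8 and 46.3 CPM in Akita and 33.2 and 38.4 CPM in wild type, with a log2 fold change of 0.47 ± 0.32. Mrps16 was at 115 and 83.4 CPM in Akita and 76.3 and 72.4 CPM in wild type. Mrps30, a protein now placed in the large subunit, was at 28.7 and 21.2 CPM in Akita and 18.5 and 14.2 CPM in wild type. Their log2 fold changes were 0.39 ± 0.27 and 0.57 ± 0.46, with edgeR adjusted p of 1.00 for each of these members.

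**Figure D2:**
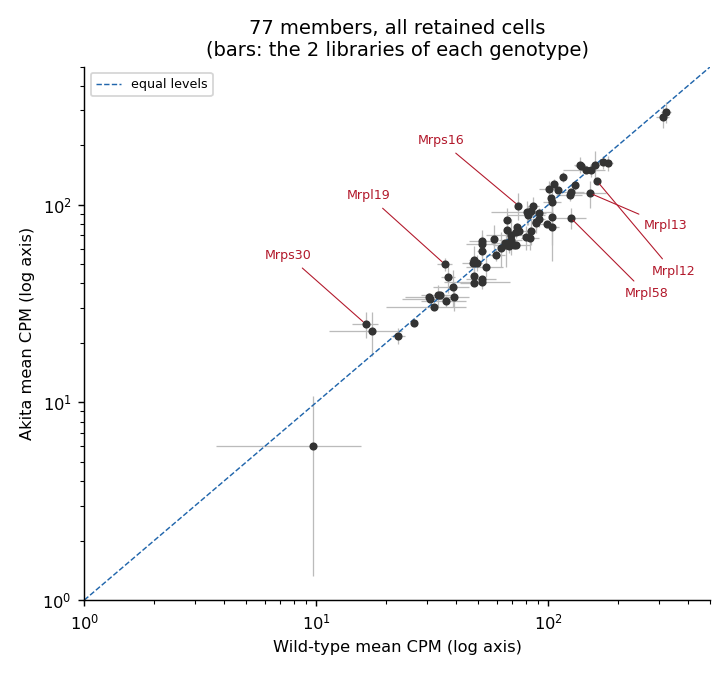
Mean level of each member in 2 Akita libraries (vertical axis) against 2 wild-type libraries (horizontal axis), both in CPM on log axes, with bars that reach the 2 libraries of each genotype. The points follow the dashed line of equal levels, and the 6 labelled members, those with the smallest p in each direction, did not pass the test.

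All retained cells mix tubule segments, and in such sums fewer cells of a type and less RNA per cell cannot be told apart. Within proximal tubule-like cells the summed level was 5754 and 6278 CPM in Akita and 5965 and 6502 CPM in wild type (Akita 6016 ± 370, wild type 6233 ± 380, SD, n = 2 each). Of 76 members tested, 0 were called by edgeR, where percent called over the 6097 genes tested was 0%, and 0 had an unadjusted p under 0.05 beside 0.951% of all genes. DESeq2 and limma-voom also called 0. The median log2 fold change was −0.04 for the members and 0.00 for all genes, and 42.1% of members and 50.3% of all genes were above 0. The 2 genotypes did not overlap for 22 members (10 higher in Akita, 12 lower) or 28.9%, beside 22.7% of all genes (11.6% and 11.1%).

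The members with the smallest p in proximal tubule-like cells partly repeated those above, from largely the same cells. Mrpl58 was at 67.2 and 95.7 CPM in Akita and 103 and 149 CPM in wild type (log2 fold change −0.60 ± 0.30). Mrps6 was at 25.5 and 33.7 CPM in Akita and 41.4 and 58.0 CPM in wild type (−0.71 ± 0.39), and Mrpl13 was at 69.5 and 126 CPM against 110 and 170 CPM (−0.48 ± 0.31). On the other side, Mrpl19 was at 57.9 and 28.4 CPM in Akita and 24.6 and 19.9 CPM in wild type (0.89 ± 0.45). Mrps35 was at 107 and 70.9 CPM against 66.0 and 65.3 CPM (0.41 ± 0.30), and Mrps33 was at 125 and 115 CPM against 92.1 and 97.9 CPM (0.33 ± 0.26). None of these 6 passed, with an edgeR adjusted p of 1.00 for each. The high Mrpl19 value came from Akita replicate 1, and Akita replicate 2 was close to the wild-type libraries.

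No member passed between genotypes when the shared barcodes were handled in other ways, and those fits had less data. Leaving out barcodes found in both files left 162 cells with 87524 UMIs in Akita replicate 2. In Wild-type replicate 1 it left 110 cells with 68731 UMIs. With the barcodes found in both files left out, 0 of 70 tested members were called in all retained cells and 0 of 63 in proximal tubule-like cells. With each kept in 1 file only, 0 of 76 and 0 of 75 were called. The percent called over all genes tested was 0% in each of these fits. Leaving out Akita replicate 2, which is in the pair, leaves 1 Akita library. The median log2 fold change in all retained cells was then −0.12 for the members and −0.01 for all genes. In proximal tubule-like cells it was −0.14 and −0.02 in the same order.

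Genes that act with the mitochondrial ribosome gave 0 calls between genotypes in each of 7 lists, beside 0% of all genes tested. The mitoribosomal proteins that carry other symbols were led by Aurkaip1 (110 ± 4.85 CPM, SD, n = 4), Gadd45gip1 (110 ± 7.39) and Chchd1 (101 ± 10.7), levels within the upper range of the Mrpl and Mrps genes. Among assembly and rRNA-modifying factors, the highest were Ndufab1, the mitochondrial acyl carrier protein (328 ± 27.4 CPM), C1qbp (118 ± 13.3) and Malsu1, an assembly factor of the large subunit (46.9 ± 12.2). The list of translation factors was led by Gfm1, an elongation factor (140 ± 9.33 CPM), Letm1 (133 ± 13.8) and Mtif2, an initiation factor (113 ± 3.87). Letm1 is on this list but is not itself a translation factor. The highest aminoacyl-tRNA synthetases were Rars2 (97.0 ± 6.73), Iars2 (84.2 ± 16.6) and Fars2 (42.0 ± 12.4), and the highest genes of mitochondrial transcription and RNA handling were Lrpprc (146 ± 27.1), Hsd17b10 (118 ± 13.1) and Grsf1 (93.7 ± 15.8).

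The RNAs that the mitochondrial ribosome is built on and reads had a wide range of measured levels. mt-Rnr2, the large ribosomal RNA, was at 91061 ± 5030 CPM and mt-Rnr1, the small one, at 4054 ± 711. The highest mitochondrially encoded mRNAs were mt-Cytb (20659 ± 2749 CPM), mt-Nd1 (17415 ± 2165) and mt-Nd2 (12362 ± 1547). Of the 12 on the list, 8 were above 1000 CPM, and mt-Co3 (2.55 CPM), mt-Co2 (1.06), mt-Atp6 (0.308) and mt-Nd4l (0) were below the lowest member. How alignment and counting treated reads of mt-Co3, mt-Co2, mt-Atp6 and mt-Nd4l is not given in the sources used here. Its part in their low values was not tested, so these are not read as levels in the cell. Poly(A) capture recovers ribosomal RNA unevenly, so levels of the rRNAs are not set against each other here.

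Levels were then set side by side between tubule segments. The summed level in proximal tubule-like cells was 6122 ± 374 CPM (SD, n = 3 sources, with the pair that shares barcodes as 1), and in loop of Henle-like cells it was 7862 ± 249 CPM. Per library, loop of Henle-like cells were at 7914, 7369, 7886 and 8081 CPM where proximal tubule-like cells were at 5754, 6278, 5965 and 6502 CPM, in the order Akita replicates 1 and 2 and Wild-type replicates 1 and 2. Every loop of Henle-like value lay above every proximal tubule-like value. The ratio was 1.38, 1.24 and 1.24 in Akita replicate 1, the pooled pair and Wild-type replicate 2 (1.29 ± 0.08, n = 3 sources), and 1.23 in the pair with each shared barcode kept in 1 file.

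Distal convoluted tubule-like cells also lay above, at 7665, 7592, 7309 and 8036 CPM in the 4 libraries, with a ratio to proximal tubule-like cells of 1.33, 1.22 and 1.24 in the 3 sources (1.26 ± 0.06). Intercalated-like cells, which secrete acid or base in the collecting system, were at 7792, 7706, 7746 and 6744 CPM, and connecting tubule-like cells at 5972, 7335, 7983 and 6171 CPM. These 2 classes held only 8 and 6 cells in Akita replicate 1, and the counting interval of the connecting tubule-like sum there ran from 3901 to 8750 CPM. No test was made on the sums, since they are scores over genes chosen with earlier results known.

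**Figure D3:**
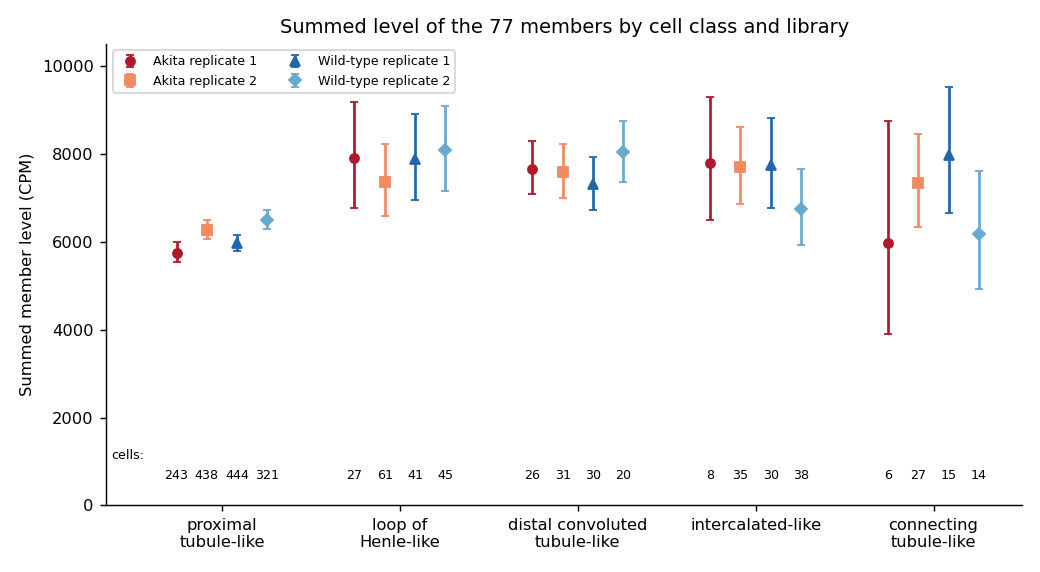
Summed level of the 77 members in CPM, by cell class and library, with exact 95% Poisson intervals that cover counting error only and the number of cells printed under each point. All 4 loop of Henle-like and all 4 distal convoluted tubule-like values, between 7309 and 8081 CPM, lie above the proximal tubule-like values, between 5754 and 6502 CPM.

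The genes Mrps6 and Mrpl42 held part of the difference in sums. Without Mrps6 and Mrpl42 the loop of Henle-like ratio was 1.19 ± 0.09 and the distal convoluted tubule-like ratio 1.17 ± 0.07 (n = 3 sources), above 1 in each source. Large and small subunit genes were also summed apart. In Akita replicate 1, the pooled pair and Wild-type replicate 2, the distal convoluted tubule-like ratio was 1.37, 1.11 and 1.16 for large and 1.26, 1.45 and 1.39 for small subunit genes, so that Akita replicate 1 had the opposite order from the other sources. The loop of Henle-like ratio was 1.38, 1.21 and 1.28 for large and 1.37, 1.31 and 1.17 for small subunit genes, with no common order either.

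Other mitochondrial readouts differed between the same classes by other amounts. The nuclear-encoded subunits of the respiratory chain and ATP synthase, the complexes that the mitochondrial ribosome supplies with core subunits, summed to 55727 CPM in proximal tubule-like and 107358 CPM in loop of Henle-like cells over the 4 libraries together, a ratio of 1.93. In distal convoluted tubule-like cells this ratio was 1.79 and in intercalated-like cells 1.47, where the member sums gave 1.24 and 1.21. Mitochondrially encoded mRNAs took 9.32% of UMIs in proximal tubule-like, 12.1% in loop of Henle-like, 8.75% in distal convoluted tubule-like and 6.74% in intercalated-like cells. These shares hold almost nothing from mt-Co3, mt-Co2, mt-Atp6 and mt-Nd4l, which had few or no counts. The summed genes of the cytosolic ribosome had ratios of 1.01, 0.965 and 0.980 to proximal tubule-like cells in the same 3 classes.

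Depth differed between classes. The median cell had 793 UMIs in the proximal tubule-like, 632 in the loop of Henle-like and 1655 in the distal convoluted tubule-like class. Among cells with at most 1000 UMIs, the member sum was 5708 CPM in proximal tubule-like and 7547 CPM in loop of Henle-like cells, and among deeper cells it was 6270 and 8089 CPM. In distal convoluted tubule-like cells it was 5901 CPM in 30 shallow cells, with an interval from 4872 to 7083 CPM, and 7750 CPM in 77 deeper cells. These sums count a barcode found in both files of the pair in each, so their intervals are too narrow. With each kept in 1 file, the sums of shallow cells were 5474 CPM (5246 to 5709) in proximal tubule-like, 7406 CPM (6738 to 8123) in loop of Henle-like and 6368 CPM (5042 to 7937) in distal convoluted tubule-like cells. Those of deeper cells were 6191 CPM (6060 to 6323), 7939 CPM (7139 to 8804) and 7697 CPM (7344 to 8063) in the same order. The loop of Henle-like intervals lay above the proximal tubule-like ones at both depths. The distal convoluted tubule-like interval lay above among the deeper cells and overlapped among the shallow ones.

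Within the proximal tubule-like class the member sum varied across its 8 clusters, from 4650 to 8152 CPM. The lowest was the cluster led by Slc5a12, Snhg11 and Prodh2, Slc5a12 being a lactate transporter of the early proximal tubule, with libraries between 4145 and 5189 CPM. The cluster led by Slco1a1, Ly6e and Lpl followed at 5227 CPM (4991 to 5617). The highest was the cluster led by Ass1, Gatm and Maf at 8152 CPM, with libraries between 6712 and 9459 CPM, none of which reached down to any library of the 2 lowest clusters. Its leading genes were ranked against cells named other than proximal tubule, and Ass1 also led other clusters ranked in that way. Those of the 2 lowest clusters were ranked against all other cells, so the leading genes are not compared. Other readouts also differed between these clusters, and none of them followed the member sum through all 8 clusters. In the clusters with the lowest and the highest member sum, cytosolic ribosomal genes were at 25545 and 53004 CPM. Nuclear-encoded respiratory chain and ATP synthase genes were at 44356 and 64426 CPM. Mitochondrial UMIs were 19.6% and 13.5% in the same order, with other clusters between 13.2% and 25.8%. The median depth was 761 and 635 UMIs, with other clusters between 481 and 2304.5 UMIs. The part of these readouts in the member sums was not tested.

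Loop of Henle-like cells were compared with proximal tubule-like cells gene by gene over the 3 sources. Of 66 members tested, 2 rose and 1 fell at an edgeR adjusted p under 0.05, which is 4.55%, where percent called over all 3567 genes tested was 25.1% (9.5% higher and 15.6% lower). The share of members called was below that of all genes. Their median log2 fold change was 0.17 and that of all genes −0.22, and 40 of 66 members (60.6%) were above 0 against 41.9% of all genes. All 3 sources moved one way for 12 members upward and 12 downward (36.4%), beside 19.2% and 32.4% (together 51.6%) of all genes. At an unadjusted p under 0.05 there were 10 members, where the share of all genes was 33.8%.

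Mrps6, a small subunit protein with a bacterial counterpart, rose most. It was at 25.5, 37.8 and 58.0 CPM in proximal tubule-like cells of Akita replicate 1, the pooled pair and Wild-type replicate 2, and at 137, 353 and 320 CPM in loop of Henle-like cells. The log2 fold change was 2.79 ± 0.48 (SE; edgeR adjusted p 1.34e-07), a 6.90-fold difference from 41 UMIs against 89. The classes did not overlap in any source, and Akita replicate 1 was lowest in both.

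Mrpl42 was at 174, 254 and 268 CPM in proximal tubule-like cells and at 595, 667 and 610 CPM in loop of Henle-like cells, a log2 fold change of 1.36 ± 0.27 (edgeR adjusted p 5.23e-06). It rose in every source and rests on 85 UMIs in the loop of Henle-like class. Mrpl12 fell: it was at 130, 157 and 174 CPM in proximal tubule-like and 91.5, 52.4 and 29.1 CPM in loop of Henle-like cells, the latter from 7 UMIs. Its log2 fold change was −1.59 ± 0.60 (edgeR adjusted p 0.0339). This call was lost with DESeq2 (adjusted p 0.131) and limma-voom (0.0969), and without Wild-type replicate 2 (0.245) or the pooled pair (0.227). It was also lost with shared barcodes left out (0.0578), at Leiden resolution 2 (0.117) and with at least 500 genes per cell (0.0664).

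Distal convoluted tubule-like cells had 8 members called, in a comparison added after the data were seen. Of 68 members tested, 6 rose and 2 fell (11.8%), where percent called over all 4225 genes tested was 36.4% (16.3% higher and 20.1% lower). The median log2 fold change was 0.15 for the members and −0.04 for all genes. As in the loop of Henle-like class, the share of members called was below the background, and 61.8% of members against 48.3% of all genes were above 0. All 3 sources moved one way for 15 members upward and 11 downward (38.2%), beside 28.7% and 29.3% (together 58%) of all genes. At an unadjusted p under 0.05 there were 12 members, where the share of all genes was 42.9%.

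Mrps6 again rose most, from 25.5, 37.8 and 58.0 CPM in proximal tubule-like cells to 169, 417 and 392 CPM in distal convoluted tubule-like cells. The log2 fold change was 2.97 ± 0.32 (edgeR adjusted p 2.33e-19), from 106 UMIs against 89, and the classes were apart in all 3 sources. Mrpl42 was at 518, 379 and 709 CPM (log2 fold change 1.04 ± 0.21, adjusted p 3.54e-06). Mrps25, a small subunit protein particular to mitochondria, was at 60.3, 67.4 and 74.3 CPM in proximal tubule-like and 157, 215 and 166 CPM in distal convoluted tubule-like cells, a log2 fold change of 1.36 ± 0.34 (adjusted p 0.000282).

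Both classes compared above share their proximal tubule-like cells, so their values are given side by side and not as independent support. In loop of Henle-like cells Mrps25 was at 0, 196 and 174 CPM in the 3 sources and did not pass (log2 fold change 1.06 ± 0.53, edgeR adjusted p 0.138). Akita replicate 1 had 0 UMIs of Mrps25 there, from 21859 UMIs in all.

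The other distal convoluted tubule-like calls had smaller differences. Mrps16 was at 88.1, 65.8 and 61.6 CPM in proximal tubule-like and 205, 133 and 136 CPM in distal convoluted tubule-like cells (log2 fold change 1.03 ± 0.35, edgeR adjusted p 0.0110). Mrpl30 rose by 0.83 ± 0.30 (adjusted p 0.0198) and Mrpl52 by 0.84 ± 0.31 (adjusted p 0.0229) on the log2 scale. All 3 were higher in every source. Mrpl30 did not pass without Wild-type replicate 2 (adjusted p 0.399) or without Akita replicate 1 (0.0651), Mrps16 did not pass without Akita replicate 1 (0.125), and Mrpl52 did not pass when any of the 3 sources was left out (0.0507 to 0.140).

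Mrpl50 and Mrpl4, both large subunit proteins, fell in distal convoluted tubule-like cells. Mrpl50 was at 116, 82.2 and 109 CPM in proximal tubule-like and 36.2, 31.6 and 45.2 CPM in distal convoluted tubule-like cells, from 11 UMIs (log2 fold change −1.51 ± 0.48, edgeR adjusted p 0.00561). Mrpl4 was at 95.0, 106 and 81.6 CPM against 60.3, 44.3 and 30.2 CPM (−1.17 ± 0.46, adjusted p 0.0312). Both were lower in every source. The Mrpl50 call was lost with DESeq2 (adjusted p 0.0743) and at Leiden resolution 2 (0.130). The Mrpl4 call was lost with DESeq2 (0.184), limma-voom (0.0722), at resolution 2 (0.414), without the pooled pair (0.249) and without Wild-type replicate 2 (0.0992). Neither gene had enough counts to be tested with shared barcodes left out. Of the 8 calls, Mrps6, Mrpl42 and Mrps25 were the 3 that passed with DESeq2 and the 3 that passed at resolution 2.

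**Figure D4:**
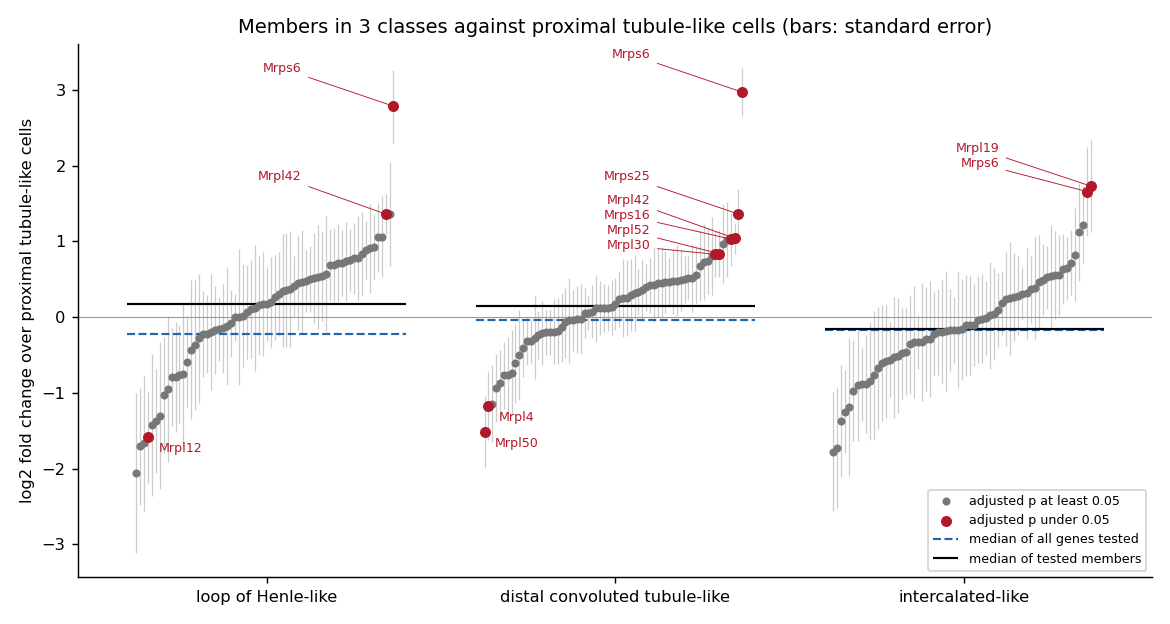
Log2 fold change of each tested member over proximal tubule-like cells, with its standard error, for 3 classes, ordered by value within a class. Red points passed an edgeR adjusted p of 0.05, the black line is the median of tested members and the dashed blue line that of all genes tested. Mrps6 stands highest in the loop of Henle-like and distal convoluted tubule-like classes, at 2.79 and 2.97.

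In intercalated-like cells 2 of 65 tested members rose and 0 fell (3.08%), where percent called over all 3762 genes tested was 27.8% (10.9% higher and 16.9% lower). With DESeq2's size factors in edgeR 2 rose and 2 fell. The median log2 fold change was −0.16 for the members and −0.17 for all genes, and 40% of members and 44.2% of all genes were above 0. All 3 sources moved one way for 17 members upward and 4 downward (32.3%), beside 27.5% and 25.4% (together 52.9%) of all genes, and 6 members had an unadjusted p under 0.05 beside 35.9% of all genes. Mrps6 was at 62.3, 173 and 196 CPM in the 3 sources, a log2 fold change of 1.66 ± 0.59 (edgeR adjusted p 0.0199). Mrpl19, a bacterial-type large subunit protein, was at 57.9, 26.3 and 19.9 CPM in proximal tubule-like and 62.3, 144 and 112 CPM in intercalated-like cells (1.73 ± 0.61, adjusted p 0.0199). In Akita replicate 1, with 8 cells, each of these genes had 1 UMI.

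DESeq2 called 0 members, and 0 were called when any of the 3 sources was left out, with adjusted p of 0.0598, 0.178 and 0.442 for Mrpl19 and 0.0766, 0.0999 and 0.281 for Mrps6 without Akita replicate 1, Wild-type replicate 2 and the pooled pair. Mrpl55, the next by p among members with a higher value, had a log2 fold change of 1.22 ± 0.52 (edgeR adjusted p 0.0637). On the lower side Mrpl28 (−1.78 ± 0.78), Mrpl20 (−1.25 ± 0.55) and Mrpl36 (−1.72 ± 0.80) had the smallest p and did not pass, with adjusted p of 0.0753, 0.0782 and 0.0974. Mrpl28 and Mrpl36 rested on 4 UMIs each in intercalated-like cells.

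Mrps6 was the member with the largest segment difference, and its place in the genome bears on how it is counted. The gene (ENSMUSG00000039680) lies at chr16:92058270-92112227 on the plus strand of GRCm38 and has 3 exons. Slc5a3, which encodes a myo-inositol transporter, starts inside its first exon on the same strand, at 92058322, shares the rest of that exon up to 92058480, and has its second, last exon at chr16:92076720-92087473, within an intron of Mrps6. The upstream bases printed above thus precede both genes, whose RefSeq starts are 14 bases apart. Another annotated coding gene, Gm49711, shares the first 2 exons of Mrps6 save the outermost bases. How the counting assigned reads from shared exons is not given in the sources used here, and its part in the Mrps6 values was not tested.

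The levels of Slc5a3 are set beside those of Mrps6. In proximal tubule-like cells Slc5a3 was at 13.9, 4.11 and 16.3 CPM in Akita replicate 1, the pooled pair and Wild-type replicate 2, and in distal convoluted tubule-like cells at 121, 190 and 136 CPM (log2 fold change 3.89 ± 0.49, edgeR adjusted p 4.54e-14). In loop of Henle-like cells it was at 229, 13.1 and 58.1 CPM, from 5, 1 and 2 UMIs. The source with the most Slc5a3 in that class, Akita replicate 1, had the least Mrps6, at 137 CPM, and there Slc5a3 was above Mrps6.

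**Figure D5:**
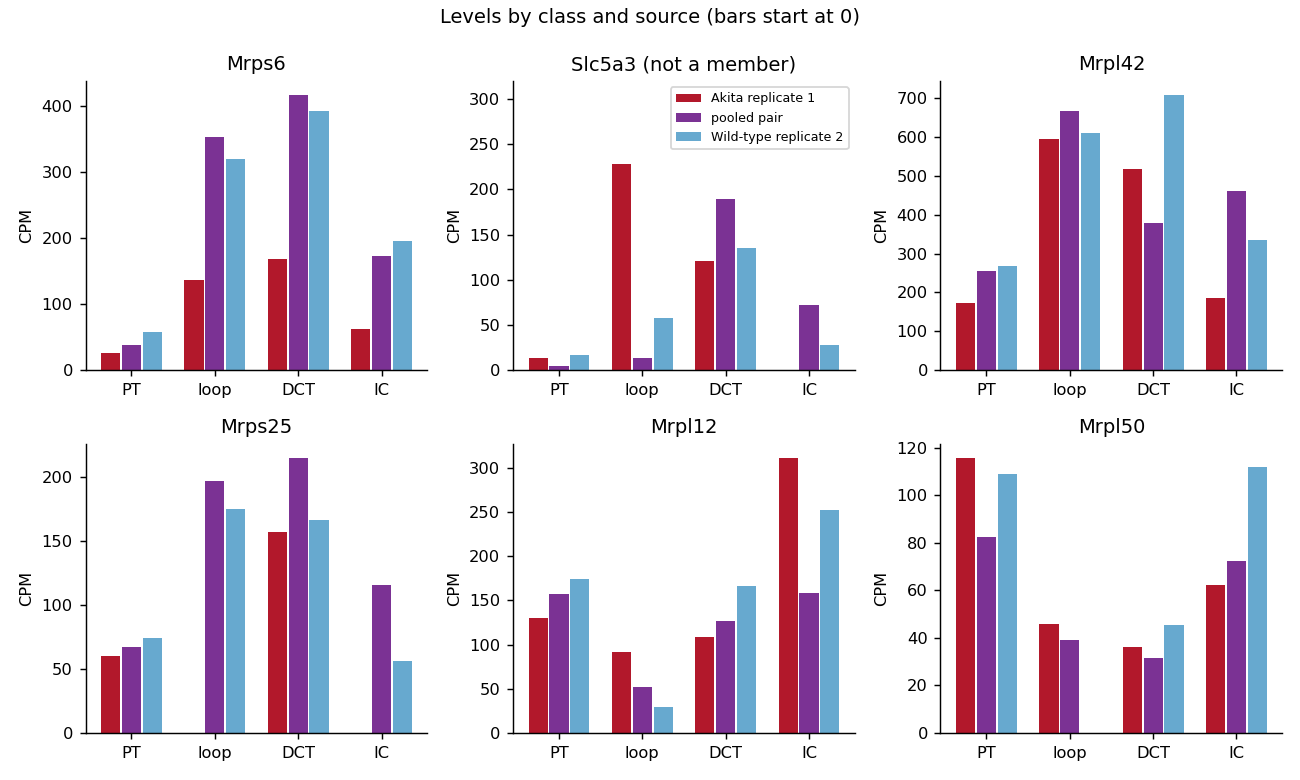
Level in CPM of 5 members and of Slc5a3 in 4 cell classes (PT, proximal tubule-like; loop, loop of Henle-like; DCT, distal convoluted tubule-like; IC, intercalated-like), with 1 bar per source. Mrps6 and Mrpl42 are higher in the loop and DCT bars than in the PT bars of each source, while Mrpl50 is lower in the DCT bars.

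The order of the classes for Mrps6 was distal convoluted tubule-like (345 CPM over the 4 libraries together, 95% Poisson interval 282 to 417), loop of Henle-like (309, 222 to 419), intercalated-like (165, 101 to 255), connecting tubule-like (116, 46.7 to 239) and proximal tubule-like (40.5, 32.5 to 49.8). The intervals of neighbours in this order overlap, and the loop of Henle-like interval also overlaps that of the connecting tubule-like class. The intervals of the distal convoluted tubule-like and loop of Henle-like classes lie above that of the proximal tubule-like class, as does that of the intercalated-like class. Shared barcodes enter these counts from both files. Mrps21, the most abundant member, was at 305 CPM in proximal tubule-like, 309 in loop of Henle-like, 348 in distal convoluted tubule-like and 297 in intercalated-like cells. The paralogs Mrps18a and Mrps18c passed in none of the class comparisons, and Mrps18b had too few counts to be tested in any comparison.

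Lists of other genes of mitochondrial translation were read in the same comparisons. In loop of Henle-like cells 1 of 4 tested genes of the assembly and rRNA modification list rose, as did 2 of 8 mitochondrially encoded mRNAs. Over all 3567 genes tested 25.1% were called (9.5% higher and 15.6% lower), so these calls are not read as a result about the lists. The former was Ndufab1, the mitochondrial acyl carrier protein (log2 fold change 1.05 ± 0.27, edgeR adjusted p 0.000577), whose rise is not read as one of ribosome assembly. The mRNAs were mt-Co1, a cytochrome c oxidase subunit (1.13 ± 0.19), and mt-Nd3, a complex I subunit (0.53 ± 0.20). The mt-Nd3 call was lost without Wild-type replicate 2 (adjusted p 0.273) or the pooled pair (0.223), and that of Ndufab1 without the pooled pair (0.0700). No other tested gene of the 7 lists was called there.

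In distal convoluted tubule-like cells Aurkaip1 (0.86 ± 0.32) rose among 4 tested mitoribosomal proteins with other symbols, and Ndufab1 (0.52 ± 0.21) among 4 genes of the assembly list. Rars2, the mitochondrial arginyl-tRNA synthetase, fell (−1.40 ± 0.45, 1 of 5 synthetases), as did Lrpprc, a protein that binds mitochondrial mRNAs (−1.06 ± 0.36, 1 of 7). Of 8 mitochondrially encoded mRNAs, mt-Co1 rose (0.45 ± 0.19) and mt-Nd6 fell (−0.66 ± 0.19). mt-Rnr1 fell by 0.84 ± 0.18 on the log2 scale. Over all 4225 genes tested 36.4% were called (16.3% higher and 20.1% lower), so these calls too are not read as a result about the lists. Aurkaip1 and Ndufab1 did not pass when any source was left out, mt-Co1 did not pass without Akita replicate 1 or the pooled pair, Lrpprc not without Wild-type replicate 2 or the pooled pair, and Rars2 not without the pooled pair.

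In intercalated-like cells, of 8 mitochondrially encoded mRNAs tested, 7 fell: mt-Nd4 (log2 fold change −1.03 ± 0.19, edgeR adjusted p 4.74e-07), mt-Nd6 (−0.81 ± 0.18), mt-Nd1 (−0.78 ± 0.18), mt-Cytb (−0.74 ± 0.17), mt-Nd2 (−0.66 ± 0.18), mt-Nd3 (−0.60 ± 0.24) and mt-Co1 (−0.48 ± 0.18). mt-Rnr1 fell too, by 0.71 ± 0.20. Over all 3762 genes tested 27.8% were called (10.9% higher and 16.9% lower). Of 6 tested genes of the translation factor list 2 rose, Mtif2 (1.08 ± 0.42) and the ribosome recycling factor Gfm2 (1.66 ± 0.61). Of 6 genes of transcription and RNA handling Tfb2m rose (1.57 ± 0.63). Without Akita replicate 1, mt-Nd4 was the only one of the 7 mRNAs still past the threshold, and Mtif2 and Gfm2 did not pass when any source was left out.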

How the data were processed

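The deposited values are raw UMI counts for each gene in each barcode. The build GRCm38 and the tools STAR 2.5.2b, UMI-tools 0.5.3 and featureCounts 1.6.0 are listed in the submitters' processing notes, and their order and settings are not given in the sources used here. Strings that were not barcodes (4 per file) were left out, and doublets were not called. CPM relates UMIs to all UMIs of the cells summed. Cells were clustered with scanpy 1.11.5 and leidenalg 0.10.2 (2000 variable genes, 30 principal components, 15 neighbours, resolution 1) without the 77 genes, and clusters were named from at least 3 markers among their top 50 genes. These genes were first ranked against all other cells. Clusters left unnamed were ranked again against cells named other than proximal tubule. The loop of Henle-like, the connecting tubule-like and part of the proximal tubule-like clusters got their names in this second round.

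Counts were summed per library, or per class and source, and tested with edgeR 4.0.16 in R 4.3.3 (TMM, filterByExpr, quasi-likelihood, two-sided), with source as a block between classes and Benjamini-Hochberg adjustment over all genes tested. DESeq2 1.42.0 and limma 3.58.1 were alternatives, and the fit was tested on simulated data. Positions are from GENCODE and 1-based. P-values measure the spread between these libraries, and with 2 libraries per genotype, which in 1 pair share barcodes, only large differences could pass. Intervals cover counting error only.

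The members, lists and comparisons were chosen with earlier results of these data known. Named genes are the 10 highest members, the 3 smallest p per direction between genotypes, the members called between classes (or the 3 smallest p per direction where under 3 were called), the Mrps18 paralogs, and in each list the 3 highest genes and any called. The distal convoluted tubule-like comparison, the crossed pairing, the sums over 3 sources, the depth split and the sums without Mrps6 and Mrpl42 were added after the data were seen. Mrpl49, Mrps25 in the loop of Henle-like class, Slc5a3 and the values by cluster were also named after their values were seen.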

Additional observations from a re-analysis of the deposited data

Results flagged for a closer look

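Barcodes that were not retained as cells also held UMIs of the members. Their summed level was 1922 and 2189 CPM in Akita replicates 1 and 2 and 2476 and 2651 CPM in Wild-type replicates 1 and 2, where retained cells were at 6176 to 6729 CPM. In these barcodes between 63.1% and 70.2% of UMIs came from mitochondrially encoded genes. The part of that share in the lower level was not tested.

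Pseudogenes of members, which the rule leaves out, were listed with UMIs of their own over the 4 libraries. Mrpl23-ps1 had 131 UMIs, Mrps36-ps1 had 84, Mrpl48-ps had 37 and Mrps36-ps2 had 10. Reads from a member and its near-identical copy can be exchanged by alignment, so the counts of Mrpl23, Mrps36 and Mrpl48 are uncertain to that extent.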

How the results depend on the processing

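Between genotypes 0 members were called under each alternative run, with a replicate block (0 in all retained cells and 0 in proximal tubule-like cells) as without. The deviations of same-numbered libraries correlated at −0.256 over 7169 genes. This value cannot show whether replicate numbers pair the mice, since Akita replicate 2 and Wild-type replicate 1 have most of their retained barcodes in common. Crossed pairing as a block also gave 0 calls in both. In the loop of Henle-like comparison 3 members were called, beside 25.1% of all genes. The count became 12 with 4 libraries as blocks, which counts shared barcodes more than 1 time, beside 36.1% of all genes. It was 10 at Leiden resolution 2 (33.3% of all genes) and 5 with at least 500 genes per cell (19.3%). With a source left out it was 2 to 3, beside 12.6% to 19.0%. In the intercalated-like comparison 2 members were called, beside 27.8% of all genes. The count became 0 with DESeq2 (17.5% of all genes) and with shared barcodes left out (25.8%). It was 4 with DESeq2 size factors (28.8%) and 4 with no filter on low counts (5.95%, none of the 2 among them). With 4 libraries as blocks it was 8 (37.1%). It was 0 whichever source was left out, beside 13.5% to 22.9%. In the distal convoluted tubule-like comparison 8 members were called, beside 36.4% of all genes. The count became 3 with DESeq2 (23.6% of all genes) and 3 at resolution 2 (31.5%). With a source left out it was 6 to 8, beside 27.7% to 31.3%. DESeq2's size factors in edgeR moved the median log2 fold change of all genes from −0.22 to −0.30 in the loop of Henle-like and from −0.17 to −0.31 in the intercalated-like comparison, and the members' median was 0.40 and 0.00 above it (0.40 and 0.01 before). With no filter the members' own median in the loop of Henle-like comparison was −0.42 and that of all genes −1.30. With at least 500 genes per cell the 2 medians were −0.05 and −0.47, so the members' median stayed above that of all genes. Averaged over 4 libraries, the loop of Henle-like ratio of sums moved from 1.28 to 1.39 without mitochondrially encoded genes and to 1.18 without Mrps6 and Mrpl42. The distal convoluted tubule-like ratio moved from 1.25 to 1.17 without these 2 genes, 1.17 at resolution 2 and 1.37 with shared barcodes left out, where 2 and 3 cells were left in the pair. Mrps6 passed under all 14 alternatives in the loop of Henle-like and all 14 in the distal convoluted tubule-like comparison; Mrpl42 passed under all but 1 in the former (no filter, adjusted p 0.0729) and all 14 in the latter. Of 404 values of single members under alternatives 0 changed sign. Many of the 404 came from members that had not passed in the main fit and so could not lose a call. Among members that had passed, 42 values no longer did, and among the rest 13 newly passed. The causes were not tested.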
